A study of Homo sapiens with 9 samples.

Results

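Control HCN-2 cells were profiled on 3 arrays, all those titled as scrambled control among the 9 arrays of the series. HCN-2 is a human cell line sold as cortical neuronal cells and grown here with fetal bovine serum. The control cells received a scrambled mimic, a synthetic RNA made to have no intended target, as 3 μL of a 20 μM stock, and total RNA was collected 24 h later. The other 6 arrays hold cells given a mimic of miR-126-5p or miR-140-3p and were not compared here. The study used the line to ask how these microRNAs act on neuronal differentiation, and the control profile answers a simpler question, namely which genes the cells expressed before any microRNA effect is considered. All 3 control arrays come from 1 cell line, and their cells received the transfection procedure. The 9 arrays of the series are all titled as cells transfected with a mimic, so none holds untransfected cells. Nothing read here states that the arrays are separate cultures, so the spread between them may be technical.

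Neurons are recognised by proteins of their cytoskeleton, RNA-binding proteins of the ELAV and RBFOX families, synaptic vesicle proteins, and channels and receptors for transmitters. Neural progenitors use SOX and PAX transcription factors, astrocytes make GFAP and the water channel AQP4, and mesenchymal cells such as fibroblasts and the mural cells around vessels make fibrillar collagens and contractile proteins. Interferon-stimulated genes are the antiviral effectors that cells switch on when an interferon signals through the kinases JAK1 and TYK2 to the factor complex that contains IRF9.

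The values are log2 expression levels from 1 table of 138745 rows. A platform annotation gave exactly 1 gene symbol for 36176 rows, which cover 33616 genes, and a gene with several rows is represented by its brightest row on the control arrays. A gene was called above background when its value on each of the 3 arrays was higher than the highest background control row of that array. That bound was 8.72 on array 1, 9.46 on array 2 and 7.78 on array 3. It was strict, since the 23 background rows differ by the number of G and C bases given in their names, and the highest were those with 3 or 4, while the row with 15 had a mean of 2.18. Of the 36176 rows, 6452 were above background (17.8%), which gave 6303 of 33616 genes (18.8%) and 5215 of 17575 protein-coding genes (29.7%). The median protein-coding gene had a level of 7.06, the upper quartile began at 10.15 and the brightest 10% at 12.53. As a second reference, the 374 olfactory receptor genes, which are known for expression in the nose, had a median level of 4.56 and a 95th percentile of 6.19, and 0 of them were above background. That 95th percentile is called the olfactory receptor level below. The olfactory receptor bound, used for some counts below, is the 95th percentile of the rows of these genes on each array. It was 6.04, 6.41 and 6.21 on arrays 1 to 3, and a gene had to pass it on each.

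**Figure D1:**
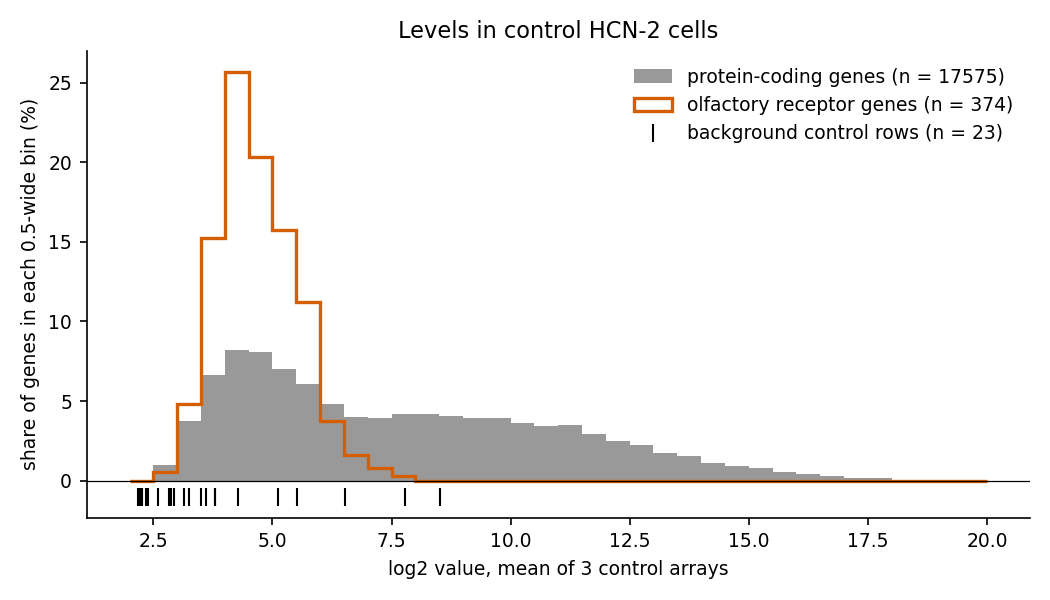
Distribution of log2 levels (x axis, mean of the 3 control arrays) as the share of genes per bin in percent (y axis). Grey bars show the 17575 protein-coding genes, the orange line the 374 olfactory receptor genes, and black ticks the 23 background control rows. The olfactory receptor genes lie between 2.82 and 7.60, and the protein-coding genes have a long upper tail to 19.92.

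A rank between genes is a description here, because probe sets hybridise with different efficiency and an array gives no count of molecules. The genes used in every cell also spread widely in level, and the parts of probe efficiency and of abundance in that spread were not tested. Of 16 measured, 12 were above background, led by the glycolytic enzyme LDHA at 18.92, 18.85 and 18.98 on arrays 1 to 3, the peptidyl-prolyl isomerase PPIA, GAPDH and the translation factor EEF1A1. The 4 others missed the bound, among them the cytoskeletal actin ACTB at 8.88, 9.28 and 9.33 and the purine salvage enzyme HPRT1 at 8.46, 7.98 and 8.96. A gene that missed the bound is therefore described by its level and is not called absent.

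The 20 brightest protein-coding genes combined mitochondrial, matrix, glycolytic and interferon-related transcripts. Of these, 5 are encoded by the mitochondrial genome, namely CYTB, ND5, ND1, COX1 and COX2, with means from 19.52 to 19.92. The top value of the table, 19.93, was reached by 9, 12 and 12 rows on arrays 1 to 3, so levels near it were not resolved from each other. IGFBP7, a secreted protein that binds insulin-like growth factors, had rank 5 at 19.80, 19.80 and 19.83. The antiviral membrane protein IFITM3 had rank 9 and the matrix protein SPARC rank 11, at means of 19.18 and 19.03. Fibronectin (FN1), the annexin ANXA2, the hypoxia factor HIF1A, the lysosomal and membrane glycoprotein GPNMB and the aldo-keto reductase AKR1C1 followed between 18.51 and 18.81. The remaining members of the 20 were ITM2B, ATP6V0E1, CCNI, SGIP1, LDHA, PPIA and UACA. No member of the neuronal lists used here was among them, and genes outside the lists were not sorted by cell type.

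Collagens, matrix proteins and contractile proteins had the highest list medians among the cell type lists. Of 15 measured collagen genes, 13 were above background (86.7%, against 29.7% of protein-coding genes), and their median level was 13.21 against 7.06 for all protein-coding genes. COL1A2, which encodes a chain of type I collagen, had values of 17.72, 17.61 and 17.77. COL1A1, the partner chain, had 15.25, 15.29 and 15.63 on its brighter row and 10.15, 10.49 and 10.58 on its other row, so the rows of this gene differed by more than the arrays did. The type VI chain COL6A1 reached 16.00, 16.55 and 16.61, and the basement membrane chain COL4A1 reached 14.98, 15.07 and 15.27. The 2 dimmest were COL15A1, with a mean of 7.44, and COL11A1, a cartilage collagen, at 6.15, 6.18 and 6.13. Both were under the bound on arrays 1, 2 and 3.

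Of 23 matrix glycoproteins and proteoglycans, 15 were above background (65.2%, against 29.7%). SPARC and FN1 led, followed by the protease inhibitor TIMP1 at 17.64, 18.04 and 18.07 and the proteoglycan decorin (DCN) at 17.74, 17.37 and 17.68. The small proteoglycans biglycan (BGN) and lumican (LUM), thrombospondin 1 (THBS1) and periostin (POSTN) had means between 16.26 and 17.32. FBLN1 and MFAP5, a fibulin and a microfibril protein, were the dimmest at means of 5.13 and 3.75.

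The surface proteins and transcription factors of fibroblasts gave 10 of 21 above background (47.6%, against 29.7% of protein-coding genes). With the olfactory receptor bound, 18 of 21 were over it (85.7%, against 54.5% of protein-coding genes). The platelet-derived growth factor receptor PDGFRB had 17.28, 17.29 and 17.52, the TGF-beta co-receptor endoglin (ENG) 16.79, 16.82 and 17.14, and the homeobox factor PRRX1 16.01, 16.47 and 16.74. The ectonucleotidase NT5E, the repressors ZEB1 and SNAI2 and the cadherin CDH11 were also above background. The dimmest were MME at 3.79, 4.40 and 3.93 and THY1, a widely used fibroblast surface marker that neurons also carry, at 4.68, 4.87 and 5.05. All 3 values of THY1 and of MME were under the olfactory receptor level.

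Mural and smooth muscle genes were nearly as complete as the collagens, with 13 of 16 above background (81.2%, against 29.7%) and a median level of 13.04. The myosin light chain MYL9 had 17.52, 18.03 and 18.29, caldesmon (CALD1) 17.10, 16.90 and 17.11, smooth muscle actin (ACTA2) 15.65, 15.60 and 15.72, and the smooth muscle myosin heavy chain MYH11 15.55, 15.35 and 15.60. Myocardin (MYOCD), the co-activator that drives smooth muscle genes, had 14.50, 14.49 and 14.61. The receptor NOTCH3 and the signalling regulator RGS5, both known from pericytes, had means of 13.89 and 13.35. Desmin (DES) at 6.13, 6.02 and 6.25 and the potassium channel subunit ABCC9 at 4.14, 4.34 and 4.01, another pericyte gene, lay at or under the olfactory receptor level in the mean. Skeletal muscle genes gave 0 of 11 above background (0%, against 29.7%). The brightest, ACTA1, was at 9.18, 9.37 and 9.90, over the bound on arrays 1 and 3 and under it on array 2. The skeletal muscle factor MYOD1 was the dimmest, at 2.54, 2.51 and 2.54.

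Of 17 genes of the meninges and of neural crest mesenchyme, 2 were above background (11.8%, against 29.7%), and the list median of 7.13 was close to the 7.06 of all protein-coding genes. With the olfactory receptor bound, 12 of 17 were over it (70.6%, against 54.5% of protein-coding genes). The order of the shares therefore depended on the bound. The brightest member was the zinc finger factor ZIC1, at 15.84, 16.07 and 16.36, brighter than 98.9% of protein-coding genes. The limb and skull factor TBX15 was the other, at 10.32, 10.12 and 10.46. FOXC2 and TBX18 stood just inside or outside the bound depending on the array, with means of 9.26 and 9.21, and the homeobox factor ALX4 was at 2.78, 3.14 and 2.97.

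Alpha-2-macroglobulin (A2M), a secreted inhibitor of many proteases, had 12.69, 12.98 and 13.23, above background on each array and brighter than 92.0% of protein-coding genes. It belonged to a list of protease inhibitors and complement proteins of which 8 of 14 were above background (57.1%, against 29.7%). The membrane regulators CD59, at 17.49, 17.35 and 17.48, and CD55, at 15.03, 14.67 and 14.89, which protect cells from complement, were brighter. The complement factor CFB followed at 14.85, 14.24 and 14.53, while SERPINA1 and SERPINF1 were at means of 3.86 and 4.78.

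Against the label of cortical neurons, most genes of the neuronal cytoskeleton list were at or under the olfactory receptor level. Of 21 measured genes of the neuronal cytoskeleton and neuronal RNA-binding proteins, 4 were above background (19%, against 29.7% of protein-coding genes), and 14 were at or under the olfactory receptor level, as were 7503 of 17575 protein-coding genes (42.7%). The 4 were the ubiquitin hydrolase UCHL1, at 14.64, 15.28 and 15.56, the microtubule protein MAP1B, at 14.83, 14.78 and 15.01, the medium neurofilament NEFM, at 13.27, 12.61 and 12.75, and the dendritic microtubule protein MAP2, at 9.21, 9.49 and 9.61. MAP2 passed narrowly on array 2, where the bound was 9.46. MAPT, which encodes the axonal protein tau, had 5.98, 6.12 and 6.21, a mean brighter than 41.7% of protein-coding genes. The light neurofilament NEFL, the migration protein DCX, the axonal STMN2 and the NeuN antigen RBFOX3 had means from 3.70 to 5.36, and ELAVL3 was the dimmest at 2.56, 2.64 and 2.49. The class III tubulin TUBB3 shares its row with another symbol and was not analysed here.

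Synaptic genes gave 3 of 21 above background (14.3%, against 29.7% of protein-coding genes). These were the postsynaptic scaffold DLG4 at 10.67, 11.08 and 11.17, the inhibitory scaffold gephyrin (GPHN) at 9.68, 10.40 and 10.36, and the vesicle protein VAMP2 at 8.94, 10.19 and 10.40, followed by SV2A, which missed the bound on array 2. GPHN and VAMP2 are also made outside neurons. The vesicle proteins synaptophysin (SYP) and synapsin (SYN1) had means of 5.59 and 5.24, and SNAP25, a fusion protein of the synapse, was at 4.13, 4.16 and 4.30 beside CPLX1 at 3.38, 3.95 and 3.97. The transmitter and excitability list gave 1 of 20 (5%, against 29.7%). This was the sodium channel SCN8A at 9.97, 9.79 and 9.93 on the brighter of its rows. With the median over rows SCN8A had a mean of 6.75 and the list gave 0 of 20. GAD1, CHAT and SLC6A4, which serve GABA, acetylcholine and serotonin, followed at means from 6.91 to 8.18, and SLC32A1 and GRIN2B were the dimmest at 3.21 and 3.19. The glutamate transporter of cortical projection neurons, SLC17A7, had 5.41, 5.80 and 6.53, across the olfactory receptor level.

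Transcription factors of cortical neurons gave 2 of 14 above background (14.3%, against 29.7% of protein-coding genes). These were MEF2C at 13.20, 14.01 and 13.83 and CUX1 at 12.10, 12.64 and 12.57. Both are known from upper cortical layers and also from tissues other than brain. DLX1 and DLX2, factors of inhibitory interneurons, followed at means of 7.57 and 7.52. TBR1, a factor of deep-layer projection neurons, had 3.45, 3.53 and 3.46 and NEUROD2 3.52, 3.60 and 3.53. Neither was near the bound on any array.

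Of 17 measured progenitor genes, 4 were above background (23.5%, against 29.7%), with a list median of 5.38. They were the intermediate filament vimentin (VIM) at 16.86, 16.91 and 17.13, the Notch target HES1 at 14.27, 14.91 and 15.12, the Hedgehog factor GLI3 at 10.06, 10.79 and 11.02 and N-cadherin (CDH2) at 10.59, 10.08 and 10.40. All 4 are also known from mesenchymal cells, as are members that missed the bound, such as NOTCH1 with a mean of 7.87 and SOX9 with 5.38. Nestin (NES), at 8.87, 9.06 and 9.47, was over the bound on arrays 1 and 3 and under it on array 2. SOX2, the factor that maintains neural stem cells, had 4.87, 5.14 and 4.88, a value under the olfactory receptor level on each array. PAX6, at 2.87, 2.75 and 3.00, and SOX3, at 2.95, 2.54 and 2.63, were the dimmest. Of 8 forebrain patterning genes, 1 was above background (12.5%, against 29.7%). It was NR2F1, a nuclear receptor of the caudal cortex, at 9.91, 10.34 and 10.45, and OTX2 was at 3.18, 3.73 and 3.54. The HOX genes, which mark position along the trunk, gave 0 of 23 (0%, against 29.7%). The brightest, HOXD3, was at 6.75, 7.03 and 6.53. Neither the anterior forebrain factors nor the posterior HOX genes measured were bright, and 16 of the 39 listed HOX genes were not analysed here.

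**Figure D2:**
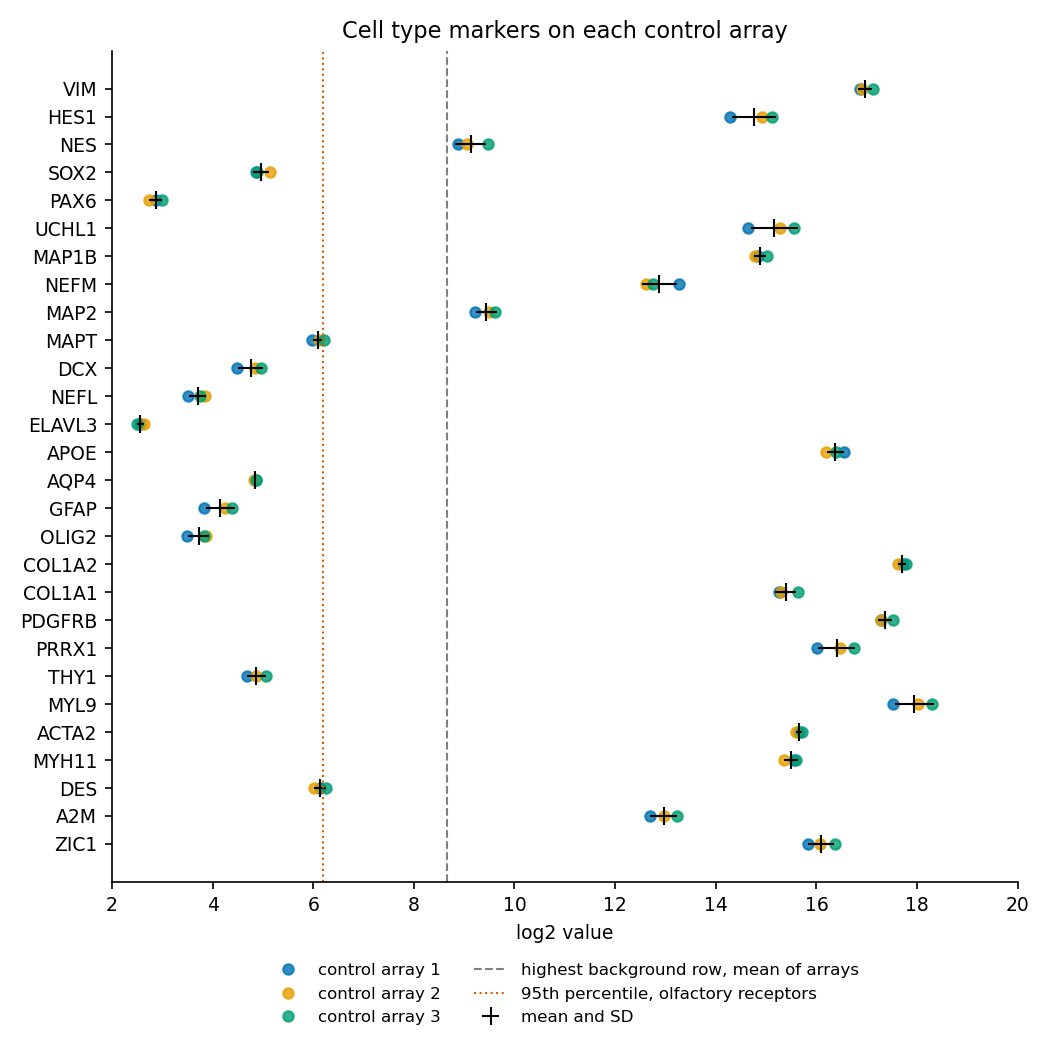
Log2 values (x axis) of 28 named genes (y axis) on control arrays 1, 2 and 3 as coloured points, with the mean and SD of the 3 arrays in black. The dashed line is the mean over arrays of the highest background row and the dotted line the 95th percentile of the olfactory receptor genes, 6.19. COL1A1, A2M, UCHL1 and NEFM lie well right of the dashed line, MAP2 lies close to it, and MAPT, SOX2 and AQP4 lie left of the dotted line.

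Of 13 astrocyte genes, 3 were above background (23.1%, against 29.7%), the lipid carrier APOE at 16.55, 16.20 and 16.38, glutamine synthetase (GLUL) at 12.18, 12.06 and 12.15 and the gap junction protein GJA1 at 10.71, 10.28 and 10.52, all of which are also made by other cells. AQP4 had 4.86, 4.82 and 4.86, an SD of 0.02, and GFAP had 3.83, 4.26 and 4.39. GJB6 and FGFR3 were the dimmest at means of 3.97 and 3.46. Of 14 oligodendrocyte genes, 3 were above background (21.4%, against 29.7%). They were the tight junction protein CLDN11 at 14.89, 15.03 and 15.34, the myelin enzyme CNP at 10.25, 10.60 and 10.65, and the proteoglycan CSPG4 at 9.06, 9.61 and 10.01, a gene that the mural list also holds. CNP has 2 rows, and with the median over rows the list gave 2 of 14, without CNP. The lineage factors OLIG1 and OLIG2 had means of 2.79 and 3.73. Of 15 microglia and leukocyte genes, 1 was above background (6.67%, against 29.7%), the lysosomal protein CD68 at 12.79, 12.98 and 13.26. P2RY12, a microglial receptor, was at 3.69, 3.73 and 3.60. Schwann cell and melanocyte genes gave 0 of 9 and epithelial genes 0 of 13 (each 0%, against 29.7%). The endothelial list gave 2 of 15 (13.3%, against 29.7%), EMCN with a mean of 11.47 and ESAM with 11.34. KDR and SOX18 had means of 3.27 and 2.92, and PECAM1 and CDH5 4.93 and 4.70. Genes of other organs gave 0 of 25 (0%, against 29.7%).

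**Figure D3:**
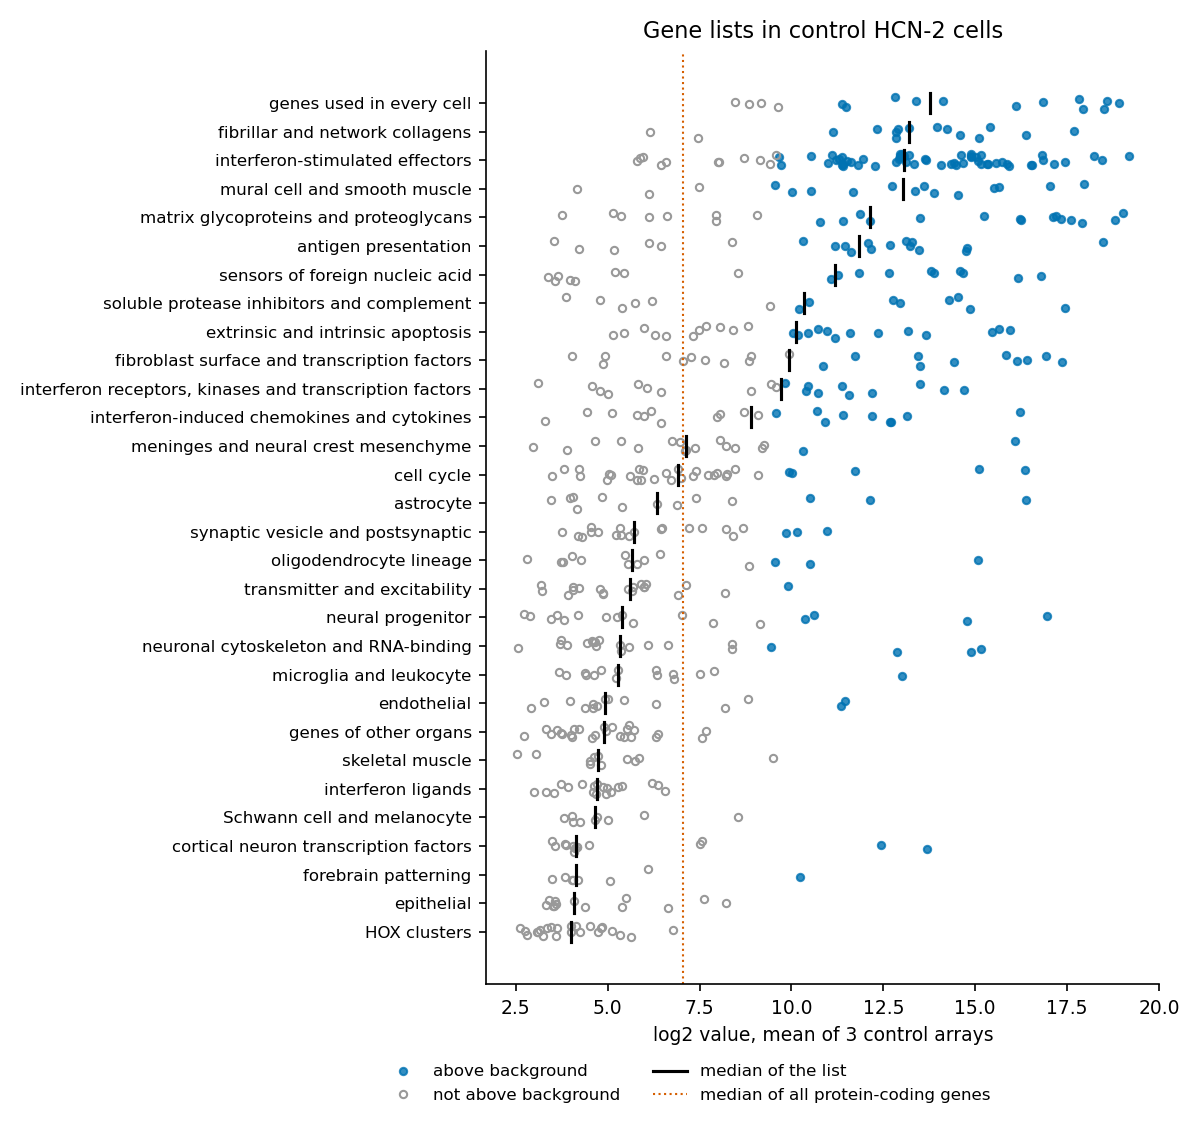
Levels of the members of the 30 gene lists (y axis) as log2 means of the 3 control arrays (x axis), with a small vertical offset for legibility. Filled points are above background on each array, open points are not, black bars are list medians, and the dotted line is the median of all protein-coding genes, 7.06. Collagens, mural genes and interferon-stimulated effectors have medians near 13, and the neuronal, progenitor and glial lists have medians under 7.06.

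Interferon-stimulated effectors were bright in these control cells, which had been transfected with the scrambled mimic. The part of transfection in these levels was not tested. Of 67 effectors measured, 56 were above background (83.6%, against 29.7% of protein-coding genes), with a median level of 13.07. At or under the olfactory receptor level were 3 of the 67, against 42.7% of protein-coding genes. Because 3 promoters of this list carry the binding motif of interferon-responsive factors in a visible form, their sequences are shown with the motif in capitals. They were chosen after the values were seen and are the 250 bases before the RefSeq start, 5′ to 3′ on the strand of the gene, in GRCh38.p14: IFIT1 at chr10:89392373-89392622 (plus strand), IFI6 at chr1:27672193-27672442 (minus strand) and ISG15 at chr1:1013247-1013496 (plus strand).
IFIT1 promoter: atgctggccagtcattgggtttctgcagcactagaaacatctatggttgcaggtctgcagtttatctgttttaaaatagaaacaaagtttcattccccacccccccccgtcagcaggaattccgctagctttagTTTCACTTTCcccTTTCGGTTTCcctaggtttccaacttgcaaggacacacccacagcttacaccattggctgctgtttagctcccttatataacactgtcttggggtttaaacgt
IFI6 promoter: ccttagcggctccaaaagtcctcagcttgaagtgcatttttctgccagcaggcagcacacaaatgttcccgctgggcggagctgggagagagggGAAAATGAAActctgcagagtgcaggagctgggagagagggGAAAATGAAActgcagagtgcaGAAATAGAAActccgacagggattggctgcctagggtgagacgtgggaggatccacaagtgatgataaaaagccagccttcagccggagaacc
ISG15 promoter: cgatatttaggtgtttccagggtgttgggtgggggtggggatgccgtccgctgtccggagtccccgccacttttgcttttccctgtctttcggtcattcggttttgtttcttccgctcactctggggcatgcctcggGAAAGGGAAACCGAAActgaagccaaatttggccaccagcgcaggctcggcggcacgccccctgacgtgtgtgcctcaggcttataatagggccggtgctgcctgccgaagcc
Capitals mark GAAANNGAAA or its reverse complement TTTCNNTTTC, searched on both strands, and matches that overlap each other were counted separately. IFIT1 held 2 matches, IFI6 held 3 and ISG15 held 2 overlapping ones. A match was present in 29 of the 50 effectors with a promoter in the table (58%), in 391 of 14255 measured protein-coding genes (2.74%) and in 839 of all 27305 promoters (3.07%). Outside the effector list, 103 of 362 protein-coding genes with a match were above background (28.5%). The genes without a match, among them the effectors without one, gave 4296 of 13864 (31%). A match is a description of letters and not a binding site, and the window before MX1 had 0 matches.

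IFITM3, which blocks entry of enveloped viruses, had 18.95, 19.19 and 19.41. The mitochondrial protein IFI6 had 18.22, 18.56 and 18.56, IFITM1 had 17.72, 18.50 and 18.46 and the RNA-binding effector IFIT3 had 17.21, 17.54 and 17.58. GAPDH and COL1A2 lay in the same range of levels. IFIT1, which binds viral RNA ends, reached 16.37, 17.01 and 17.15, and the GTPase MX1 reached 16.45, 16.95 and 17.08. The ubiquitin-like protein ISG15 was lower, at 10.81, 11.12 and 11.37. BST2, RSAD2 and OASL straddled the bound, as OASL did with 7.51 on array 1 against 9.85 and 10.06 on the others. ISG20, at 6.09, 5.72 and 5.80, and MX2, at 5.35, 5.89 and 6.14, a paralogue of MX1, were the dimmest.

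**Figure D4:**
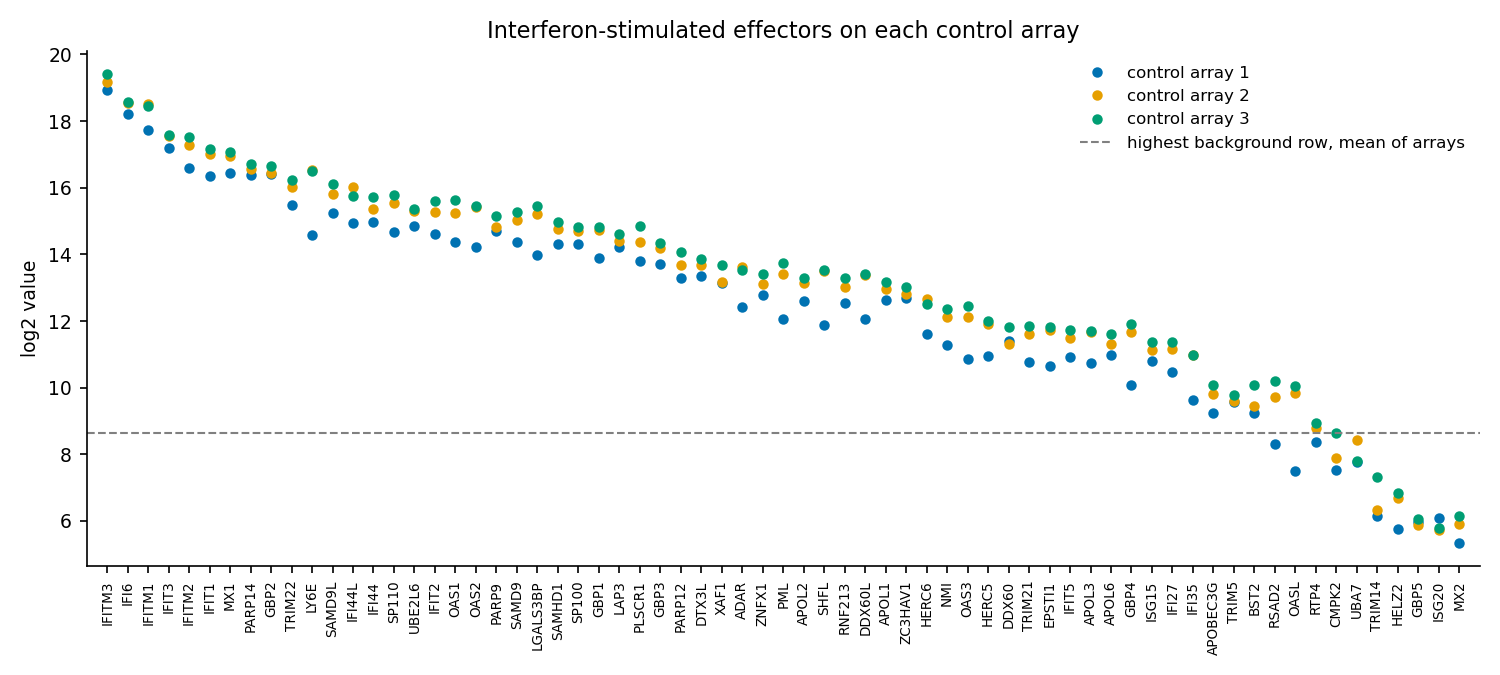
Log2 values (y axis) of the 67 interferon-stimulated effectors (x axis, ordered by mean) on control arrays 1, 2 and 3. The dashed line is the mean over arrays of the highest background row. Points of array 1 are the lowest in 64 of the 67 genes.

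No measured interferon gene was above background (0 of 19, 0%, against 29.7% of protein-coding genes). The brightest ligands were IFNA8, at 6.20, 7.14 and 6.32, and IFNA14, at 6.19, 7.01 and 5.88, followed by IFNA13 and IFNA21. Of the 19 ligands, 16 were at or under the olfactory receptor level, against 42.7% of protein-coding genes. IFNB1, the type I interferon that most cells can make, had 4.66, 4.03 and 5.18, IFNG had 3.82, 4.08 and 3.30, and the dimmest were IFNK and IFNA1 at means of 3.31 and 3.00. Genes of the interferon-alpha family are near copies of each other, so their rows may not be separate. Of 20 receptors, kinases and factors of the pathway, 10 were above background (50%, against 29.7%). IRF9 led at 14.33, 14.84 and 14.92, followed by STAT3 at 14.40, 13.84 and 14.23 and JAK1 at 13.85, 13.21 and 13.46. The receptor subunits IFNAR1 and IFNAR2 had means of 11.58 and 10.72, IFNGR2 had 12.19, and TYK2 stood at 9.32, 9.44 and 9.56, under the bound on array 2. The interferon lambda receptor IFNLR1 had a mean of 5.00, and IRF3 and the feedback inhibitor SOCS1 were the dimmest at 4.58 and 3.11.

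Of 18 sensors of foreign nucleic acid and their adaptors, 10 were above background (55.6%, against 29.7%). The DNA sensor IFI16 had 16.56, 16.88 and 16.97, the kinase EIF2AK2 (PKR), which double-stranded RNA activates, 15.84, 16.22 and 16.42, and the RNA helicases RIGI and IFIH1 means of 14.66 and 14.59. The endosomal receptor TLR3, which binds double-stranded RNA, had 12.14, 12.78 and 13.02. TLR9, an endosomal DNA receptor, was at 3.38, 3.47 and 3.28 and ZBP1, a cytosolic sensor, at 3.42, 3.44 and 3.84. CGAS was at 3.86, 4.46 and 3.62, and its downstream adaptor STING1 at 13.13, 14.15 and 14.12.

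Antigen presentation gave 14 of 20 above background (70%, against 29.7% of protein-coding genes), all of them in or around class I. The light chain B2M had 18.56, 18.35 and 18.52, HLA-C 14.79, 14.57 and 14.98, HLA-B 14.60, 14.69 and 14.99 and the peptide loader TAPBP 12.89, 13.55 and 13.95. The class II genes CD74 and HLA-DRA were the dimmest at means of 4.21 and 3.53, beside their regulator CIITA at 5.17. HLA genes share sequence, so their rows may not be separate. Of 20 chemokines and cytokines, 9 were above background (45%, against 29.7%), led by CCL2, which attracts monocytes, at 16.12, 16.13 and 16.39. CXCL10, a chemokine induced by interferon, had 11.87, 13.64 and 13.96, and CXCL8 and IL6 had means of 12.71 and 12.69. IL1A and TNF were the dimmest at 4.43 and 3.30. CCL2 was alike on the 3 arrays, while CXCL10 was lower on array 1.

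Cell death and division genes complete the profile, since the study followed apoptosis in these cells. Of 24 apoptosis genes, 13 were above background (54.2%, against 29.7%), led by the survival protein MCL1 at 15.85, 15.92 and 16.10 and by CFLAR, an inhibitor of death receptor signalling, at 15.65, 15.58 and 15.70. The receptor TNFRSF1A and the BH3-only protein BCL2L11 followed at means of 15.46 and 13.66. The survival gene BCL2 was at 5.94, 5.64 and 6.42, and PMAIP1 and BIRC3 were the dimmest at 5.45 and 5.15. Of 31 cell cycle genes, 5 were above background (16.1%, against 29.7%), namely the cyclin CCND1 at 16.15, 16.37 and 16.55, the inhibitor CDKN1A (p21) at 14.85, 15.12 and 15.37, MCM7, PCNA and CCND2. The proliferation marker MKI67 had 5.83, 5.75 and 5.94, and the mitotic BIRC5 and the S-phase factor E2F1 were the dimmest at means of 3.81 and 3.47. The list median was 6.92, close to that of all protein-coding genes. With the olfactory receptor bound, 17 of 31 were over it (54.8%, against 54.5%).

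The 3 control arrays were close to each other but not equally so. Over the 36176 rows the Pearson correlation was 0.990 for arrays 1 and 2, 0.990 for arrays 1 and 3 and 0.993 for arrays 2 and 3, as a description across genes, which are not independent replicates. Over the 5215 protein-coding genes above background it was 0.974, 0.976 and 0.994. The median SD of those genes was 0.202, and over all protein-coding genes it fell from 0.241 at levels from 5 to 8 to 0.140 at levels from 17 to 20. The interferon-stimulated effectors had a median SD of 0.426, and their mean level was 12.38 on array 1, 13.03 on array 2 and 13.24 on array 3, against means of 7.61, 7.72 and 7.79 for all protein-coding genes. Array 1 was the lowest in 64 of 67 effectors (95.5%) and in 8679 of 17575 protein-coding genes (49.4%). The same array was also the lowest in 432 of the 494 other genes in the 10% of genes above background with the largest SD (87.4%). Among them the transcription factor ETV5 had 11.57, 14.55 and 14.58 and the small heat shock protein HSPB6 11.51, 14.22 and 14.61. Within the lists, the 5 largest SDs of genes above background were those of CXCL10 (1.13), LY6E (1.11), BCL2L1 (1.01), GBP4 (1.00) and SHFL (0.95), all with array 1 lowest. The part of RNA quality, labelling or culture in this difference was not tested.

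**Figure D5:**
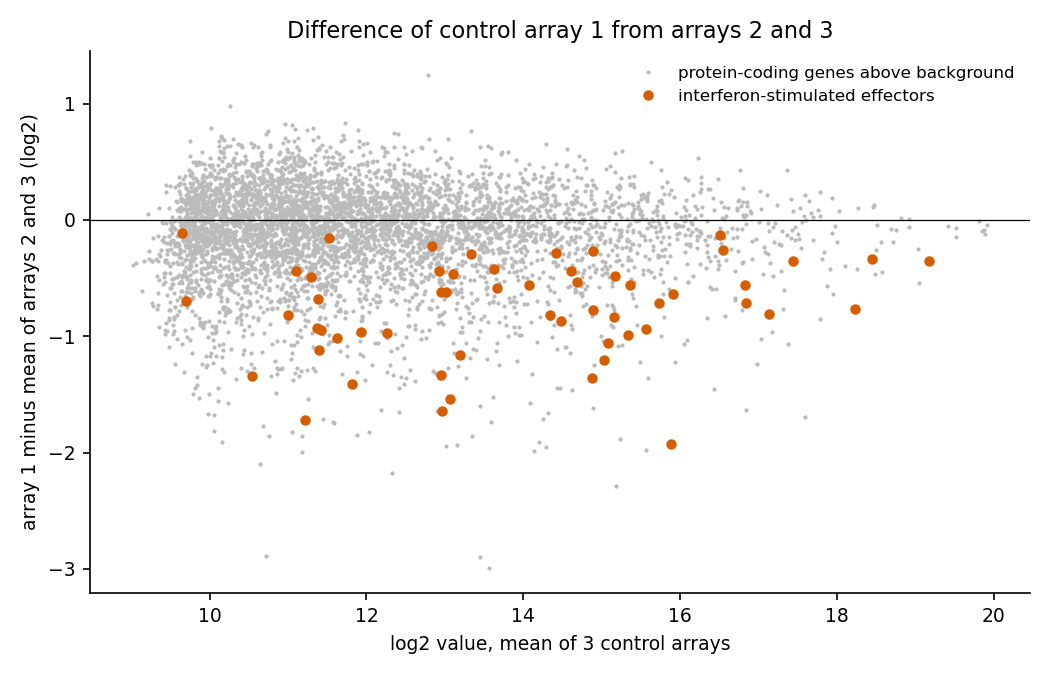
Difference of control array 1 from the mean of arrays 2 and 3 on the log2 scale (y axis) against the mean level (x axis) for the protein-coding genes above background (grey) and the interferon-stimulated effectors among them (orange). The 56 effectors lie under the zero line, within a cloud of other genes that also reaches far below it.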

How the data were processed

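Total RNA of HCN-2 cells was measured on 9 microarrays, of which the 3 scrambled control arrays were described. The authors deposited log2 values, with RMA, Affymetrix Expression Console and Partek named, without versions, in the submitters' notes on processing. In its general form RMA corrects background, quantile-normalizes all arrays together and summarizes probes, so low levels are compressed and a shift shared by all genes is removed. The control values ran from 1.84 on array 3 to a repeated top value of 19.93. Whether further scaling was applied to them was not checked. The methods name Clariom S chips and a WT-Plus kit, while the deposited description names Clariom D. The aligner does not apply and the genome build is not given in the sources used here. The table has no detection call, and the number of arrays limits the precision.

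From these values the mean and SD over 3 arrays (SD, n = 3) were computed per row with pandas 2.3.3 in Python 3.11.15. The calls rest on the fixed bound and not on a test. As an alternative, limma 3.58.1 in R 4.3.3 tested one-sided whether a row was more than 1 above the mean background, at a Benjamini-Hochberg adjusted p of 0.05, checked on simulated data. No pair of the 3 arrays was a copy, with at most 74 identical values. Rows with several symbols (1119) were left out, and 0 symbols needed changing by Entrez identifier. A share of brighter genes is over 17575 protein-coding genes.

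The genes set for naming were the 6 markers MAP2, MAPT, SOX2, COL1A1, A2M and AQP4 and the 20 brightest protein-coding genes. They also took in the 4 brightest and 2 dimmest members of each list and the 5 list members above background with the largest SD. Some of these were not named above, for example PDGFRA, MITF, ALDH1L1 and KRT8, which missed the bound at means from 8.21 to 8.84. Other genes were named after their values were seen. The members and the 30 lists were chosen with earlier results of these data known. The lists hold 638 symbols, of which 575 were measured, 19 share a row with another symbol and 44 were not analysed here. Promoter sequences are from RefSeq.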

Additional observations from a re-analysis of the deposited data

How the results depend on the processing

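The alternatives changed where the bound lay, the arrays, the scaling and the choice of row. Protein-coding genes above background numbered 5215, and 5214 to 6320 when 1 array was left out, the highest without array 2, whose bound was the highest. The 95th percentile of the olfactory receptor rows as the bound gave 9575 genes, with 7 neuronal cytoskeleton, 9 synaptic, 7 progenitor, 6 astrocyte, 18 fibroblast and 1 interferon ligand members above it. The limma test called 12492 genes, 109 olfactory receptor genes among them, and 407 members of the lists against 213, with 11 neuronal cytoskeleton, 15 synaptic, 10 progenitor, 8 astrocyte, 9 oligodendrocyte, 18 fibroblast and 6 interferon ligand members. The highest background row with 6 or more G and C bases, an alternative chosen after seeing the data, gave 10761 genes, 34 of them olfactory receptors, and 352 list members, with 8 neuronal cytoskeleton, 11 synaptic, 7 progenitor, 7 astrocyte, 6 oligodendrocyte, 18 fibroblast and 3 interferon ligand members. The mean plus 2 SD of the background rows and the 95th percentile of the negative control rows were further bounds. The latter was chosen after seeing the data. Each moved the synaptic count to 6, the meninges count from 2 to 7 and the cell cycle count from 5 to 11. Each also moved the endothelial count from 2 to 4 and the transmitter count from 1 to 2. The share of all protein-coding genes was 43.9% and 42.6% under these settings. The list shares were lower under both, at 28.6% synaptic, 41.2% meninges, 35.5% cell cycle, 26.7% endothelial and 10% transmitter. Over the 30 lists, counts of 8 moved by over 1.5 times, or from 0, under each of these settings, and of 17, 22 and 21 under the olfactory receptor bound, the limma test and the bound from 6 or more bases.

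Under the olfactory receptor bound, the limma test and the background rows with 6 or more bases, the share of all protein-coding genes rose to 54.5%, 71.1% and 61.2%, and the neuronal cytoskeleton share to 33.3%, 52.4% and 38.1%. The neuronal cytoskeleton share was below that of all genes in each, whereas the collagen share, from 93.3% to 100%, and the effector share, from 92.5% to 100%, were above it. In the main setting 12 of the 30 lists had a share over that of all genes. Meninges and cell cycle lists crossed above it under all of these 3 settings (70.6% and 54.8%, 82.4% and 80.6%, 76.5% and 71%), the synaptic list did so under the limma test (71.4%), and the sensor list fell just under it with 6 or more bases (61.1%). No list crossed under the other alternatives. Collagen and mural counts, and the effector count, stayed within 1.5 times their value under every alternative. With the median over rows in place of the brightest row, the mean level of the effectors on arrays 1 to 3 was 11.87, 12.49 and 12.68. No paired analysis was possible because 1 group alone was described and its values come from no test.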

Other observations

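Rows outside the protein-coding genes add to the profile. The brightest named rows of any kind were the signal recognition particle RNA RN7SL2 and the 18S ribosomal RNA row RNA18SN5, both at the top value of 19.93. The nuclear RNA MALAT1 had a mean of 19.83 and the small nuclear RNA RN7SK 19.41. The row annotated CDR1-AS, an RNA best known as a circular transcript of brain, had a mean of 19.52, and the array cannot tell a circular from a linear form. These genes were chosen after their values were seen.

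Classes of transcripts differed in the share above background. Small nucleolar RNAs gave 70 of 220 (31.8%), close to the 29.7% of protein-coding genes. Long non-coding RNAs gave 92 of 3051 (3.02%), microRNA genes 55 of 1470 (3.74%) and pseudogenes 666 of 9273 (7.18%). Immunoglobulin and T cell receptor V segments gave 0 of 169. Of the transcript rows without an annotation entry, 4316 of 98455 were above background (4.38%), and of the 612 negative control rows 2 were (0.327%).

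The row annotated WNT9B, a secreted Wnt ligand known from the developing kidney, was the 31st brightest of the protein-coding genes at 17.87, 17.99 and 18.13, and whether its probes match that gene was not checked. The secreted and immediate early genes around it included EDIL3, an integrin ligand, with a mean of 17.97 and EGR1, at 17.22, 18.04 and 18.10.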
